A study of Mus musculus with 12 samples.

Results

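Club cells are secretory cells of the bronchiolar epithelium in the mouse. They release secretoglobins into the airway lining, break down inhaled chemicals with cytochrome P450 enzymes and oxidise or reduce the carbonyl products that follow. After airway injury they renew themselves and give rise to ciliated cells, and they are among the cells studied as a source of lung adenoma in mice. Club cell genes are described here by 5 members, the secretoglobin Scgb1a1, the P450 Cyp2f2, the carbonyl reductase Cbr2 and the aldehyde dehydrogenases Aldh1a1 and Aldh1a7. They were chosen by symbol: every probe set that the platform annotation pairs with 1 of these symbols was taken, which gave 5 of 8251 named genes and 6 of the 12422 probe sets that are not controls. Each gene had 1 probe set except Aldh1a1, which had 2, and 4 of the 6 passed the filter on dim probe sets, among 7453 that passed in all.

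The RNA came from whole lung of A/J mice, an inbred strain that readily forms lung tumours, and each of 12 samples was read on its own Affymetrix MG_U74Av2 array. All mice were controls injected with saline, with no other agent named in the labels. Lungs were taken 24 to 26 weeks after the injection for 5 samples, with the titles AJ1, AJ2 and AJ4 or LZ2 and LZ3. They were taken 42 weeks after it for 7 samples, of which 4 were LZ22 to LZ25 and 3 were LZ61 to LZ63. Sample labels explain neither the prefix nor the number range, and do not state that samples are separate animals. Each p-value is therefore about these 12 samples, and each fit measures spread within its own groups.

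The run records gave 4 run days: day 1 held the AJ arrays, day 2 held LZ2 and LZ3, day 3 held the 4 arrays of the LZ 20s and day 4 held those of the LZ 60s. Each day therefore held 1 title range and 1 time point, and run day, title range and time point cannot be told apart. Values are MAS5 signals, an intensity per probe set that the authors scaled to a shared trimmed mean of 500.3 on every array, and precision is limited by how many arrays there are. Of the surfactant protein genes that mark lung, Sftpc read between 18314 and 40558 and Sftpb between 10600.0 and 19694.5, while the probe set of Sftpd was dim, at 21.0 to 78.3, and below the filter. Muscle genes set 3 arrays apart. The 14 cardiac genes measured had a median log2 signal of -4.10 on LZ22 and -3.78 on LZ24 relative to each gene's median, and the 9 skeletal genes had 4.61 on LZ63, where the squamous keratin Krt4 also read 19799 against 209.3 to 384.0 elsewhere.

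Of the club cell markers beyond the 5 members, the secretoglobins Scgb3a1 and Scgb3a2 and the claudin Cldn10 had no probe set named here and were not analysed here. The cell type label thus rests on the members themselves and on the P450s Cyp2b10 and Cyp4b1, which mouse club cells use on inhaled compounds. Cyp2b10 read 4548 to 6865 and Cyp4b1 read 7951 to 11187 over the 12 arrays. Of the other airway cell types, ciliated cells had 2 of 4 markers on the array above the filter, Foxj1 at 382.5 to 1018.6 and Cd24a at 4763 to 6738, while Tekt1 and Tppp3 stayed below it. None of the 4 goblet markers and none of the 4 basal markers passed the filter, and both neuroendocrine markers on the array did, Chga at 36.7 to 256.7 and Uchl1 at 131.8 to 252.9. Among the goblet markers, the mucin Muc5ac read 2.2 to 7.8, Spdef 13.3 to 96.8 and Agr2 3.5 to 209.7. Clca1 read 41.0 to 511.0, with 491.0 on AJ1 and 511.0 on LZ25. Among the basal markers, the keratins Krt5, Krt14 and Krt15 read 16.4 to 55.3, 4.1 to 42.4 and 3.8 to 11.6. Trp63 read 49.4 to 228.7, highest on LZ63. The filter is on the mean over the arrays, so a marker below it can be bright on single arrays. In whole tissue, fewer cells of a type and less RNA per cell cannot be told apart.

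Scgb1a1, the club cell secretory protein and a secretoglobin released into the airway lining, is read by probe set 94291_at. Its signal was 17251 on AJ1, 18183 on AJ2 and 16227 on AJ4. It was 25839 on LZ2 and 33503 on LZ3, the other arrays of 24 to 26 weeks. At 42 weeks it was 24999.9, 29410.2, 27978 and 24867 on LZ22 to LZ25, and 29717, 34487.5 and 25998 on LZ61 to LZ63. The 3 AJ arrays lay below all 9 LZ arrays, and the LZ arrays of 24 to 26 weeks lay within the range of those of 42 weeks. By title range, the means in rising order were 17220 ± 979 (SD, n = 3) for AJ, 26814 ± 2249 (SD, n = 4) for LZ22 to LZ25, 29671 ± 5419 (SD, n = 2) for LZ2 and LZ3, and 30067 ± 4256 (SD, n = 3) for LZ61 to LZ63. Only the step from AJ to LZ22 to LZ25 was free of overlap. The other neighbours in that order overlapped.

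Cyp2f2, the P450 that turns naphthalene into a product toxic to mouse club cells, is read by 100069_at. The signal was 10640.3, 11941 and 10505 on the AJ arrays, then 14144 on LZ2 and 17053 on LZ3. On LZ22 to LZ25 it was 13346, 15891, 14759.9 and 14505, and on LZ61 to LZ63 it was 15054, 14563 and 12886. The AJ arrays were again the lowest 3, and LZ3 was the highest array of all. The order of the means was 11029 ± 793 (SD, n = 3) for AJ, 14168 ± 1137 (SD, n = 3) for LZ61 to LZ63, 14625 ± 1044 (SD, n = 4) for LZ22 to LZ25 and 15598 ± 2057 (SD, n = 2) for LZ2 and LZ3, with overlap at every step above AJ.

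Cbr2, a carbonyl reductase known as abundant in mouse lung, has 1 probe set here, 93808_at, and it was dim. Signals ran from 81.3 to 140.7 with a median of 92.8 at 24 to 26 weeks, and from 68.8 to 109.1 with a median of 89.3 at 42 weeks. The time points overlapped, and all but the AJ4 value lay within the span of the 42-week arrays. The filter lay at a signal of about 108, so Cbr2 was left out of the main fit. Whether this probe set detects the Cbr2 transcript was not tested.

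**Figure D1:**
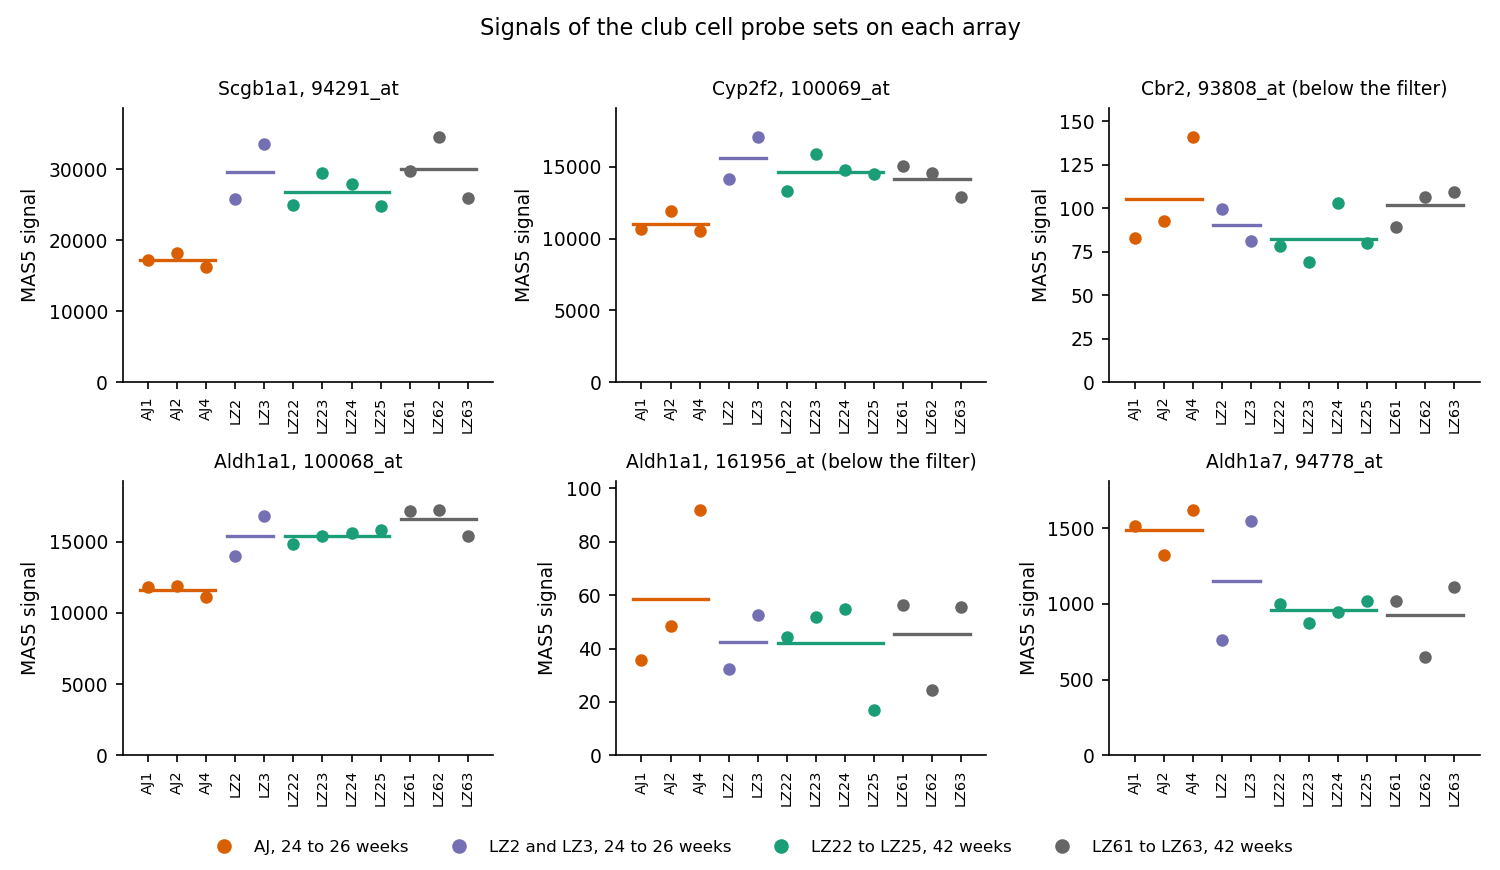
MAS5 signal (vertical axis, linear, from 0) of each club cell probe set on each of the 12 arrays (horizontal axis). Points are arrays coloured by title range and lines are the means of each range. Scgb1a1, Cyp2f2 and Aldh1a1 (100068_at) were lowest on the 3 AJ arrays, while Cbr2 and Aldh1a1 (161956_at) were dim throughout.

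Aldh1a1 oxidises retinal to retinoic acid and also clears aldehydes formed from lipids. Its probe set 100068_at gave 11782, 11877 and 11145 on the AJ arrays and 14010.5 and 16803 on LZ2 and LZ3. At 42 weeks it gave 14831, 15398, 15620.1 and 15807 on LZ22 to LZ25 and 17168, 17196 and 15391 on LZ61 to LZ63. The AJ arrays were the lowest 3 here too. In rising order the means were 11601 ± 398 (SD, n = 3) for AJ, 15407 ± 1974 (SD, n = 2) for LZ2 and LZ3, 15414 ± 423 (SD, n = 4) for LZ22 to LZ25 and 16585 ± 1034 (SD, n = 3) for LZ61 to LZ63, with overlap between all neighbours above AJ. The second probe set of the gene, 161956_at, was dim and read between 16.9 and 91.8, with its highest value on AJ4, where the first was at its lowest. Its log2 differences had wide intervals in a fit with no filter, -1.09 to 0.52 over time and -0.93 to 1.72 for AJ minus LZ2 and LZ3, and the values given for Aldh1a1 are otherwise those of the bright probe set.

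Aldh1a7 is a rodent paralog of Aldh1a1. Both genes lie on chromosome 19, and the RefSeq gene table places 0 genes between them. Their promoter windows, from 250 bases before to 50 after the annotated start (RefSeq, GRCm38.p6), are shown because the 2 genes share most of the stretch next to the start and yet their signals ordered the arrays differently. The second of 2 annotated starts of Aldh1a1 (chr19:20601718-20602017, plus strand) and the start of Aldh1a7 (chr19:20727507-20727806, minus strand) read as follows, 5′ to 3′, with capitals marking matches to CCAAT, the CCAAT box, and to ATGCAAAT, the octamer.
Aldh1a1: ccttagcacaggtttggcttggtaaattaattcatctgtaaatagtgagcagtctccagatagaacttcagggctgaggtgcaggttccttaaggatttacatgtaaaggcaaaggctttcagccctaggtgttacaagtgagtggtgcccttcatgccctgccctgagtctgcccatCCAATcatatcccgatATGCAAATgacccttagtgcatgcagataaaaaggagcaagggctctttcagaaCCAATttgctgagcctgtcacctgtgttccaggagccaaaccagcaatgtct
Aldh1a7: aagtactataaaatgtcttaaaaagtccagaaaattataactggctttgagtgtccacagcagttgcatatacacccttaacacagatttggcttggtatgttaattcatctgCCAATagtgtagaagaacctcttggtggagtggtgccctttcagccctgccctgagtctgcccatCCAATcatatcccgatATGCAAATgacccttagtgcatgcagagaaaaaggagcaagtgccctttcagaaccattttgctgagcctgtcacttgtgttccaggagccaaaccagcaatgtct
The last 130 bases matched at 125 positions without a gap, or 96.2%, and the last 30 were identical. An alignment of the 2 windows of 300 bases paired 225 bases, of which 208, or 92.4%, matched. The remaining bases of each window had no partner and were not counted. The octamer began at position -56 and a CCAAT box at -72 in both, counted from the start site. Aldh1a1 had another CCAAT at -2 and Aldh1a7 another at -137. Searched on both strands, with no overlap between the motifs, 37.4% of 32851 RefSeq promoter windows of 300 bases held CCAAT and 1.74% held the octamer. A match is a description of these letters and not of binding. The first annotated start of Aldh1a1 shared no such stretch with Aldh1a7, with 34 of the last 130 bases equal. Probe sequences were not used here, so whether the probe sets tell the 2 transcripts apart was not tested.

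The Aldh1a7 probe set, 94778_at, gave 1517, 1322.5 and 1618 on the AJ arrays, 760.4 on LZ2 and 1547 on LZ3. On LZ22 to LZ25 it gave 1001.5, 873.8, 948.7 and 1017, and on LZ61 to LZ63 it gave 1017.7, 649.1 and 1109.5. All arrays of 24 to 26 weeks except LZ2 lay above every array of 42 weeks, and LZ2 was the second lowest of all. The order of the means was the reverse of that of Aldh1a1: 925 ± 244 (SD, n = 3) for LZ61 to LZ63, 960 ± 64.5 (SD, n = 4) for LZ22 to LZ25, 1154 ± 556 (SD, n = 2) for LZ2 and LZ3 and 1486 ± 150 (SD, n = 3) for AJ. Only AJ against the 42-week ranges was free of overlap.

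Across the time points, the comparison that the series states, none of the club cell genes changed past the test. The fit was limma over 7453 probe sets on log2 signals, as 42 weeks minus 24 to 26 weeks, with a 5% false discovery rate, and it called 0 of the 4 members tested. The background was 0.0268% of probe sets called higher and 0.0537% called lower, 6 in all, while 1097 had an unadjusted p under 0.05. Of the 4 members, 3 had an unadjusted p under 0.05. The time points overlapped for all 4, against 1.50% of all probe sets that were free of overlap. Counting each member by its own direction, 3 were higher and 1 was lower at 42 weeks.

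Aldh1a1 averaged 13123 ± 2323 (SD, n = 5) at 24 to 26 weeks and 15916 ± 915 (SD, n = 7) at 42 weeks. On the log2 scale it was 0.29 higher at 42 weeks (SE 0.10, 95% interval 0.07 to 0.52, limma, adjusted p = 0.237), and 0.06 after quantile and 0.15 after cyclic loess normalization. Scgb1a1 averaged 22201 ± 7371 and 28208 ± 3405, a difference of 0.40 (95% interval 0.05 to 0.74, limma, adjusted p = 0.285), which was 0.06 and 0.20 after the same normalizations. Its readings at 24 to 26 weeks left a gap between 18183, the highest AJ array, and 25839, the lower LZ array. Cyp2f2 averaged 12857 ± 2763 and 14429 ± 1018, a difference of 0.19 (95% interval -0.06 to 0.44, limma, adjusted p = 0.480), which turned to -0.06 after quantile normalization and was 0.05 after cyclic loess. Aldh1a7 went the other way, from 1353 ± 349 to 945 ± 149, a difference of -0.49 (95% interval -0.87 to -0.10, limma, adjusted p = 0.252), with -0.47 and -0.44 after the normalizations. With run day as a random block the adjusted p of these 4 lay between 0.712 and 0.826. Without LZ22, LZ24 and LZ63, the arrays with unusual muscle signal, the differences were 0.46 for Scgb1a1, 0.25 for Cyp2f2, 0.34 for Aldh1a1 and -0.58 for Aldh1a7, and none passed (limma, adjusted p from 0.300 to 0.468).

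An exact two-sided permutation test of each member alone, over 792 regroupings, gave p = 0.0164 for Aldh1a1, 0.0391 for Aldh1a7, 0.0631 for Scgb1a1 and 0.150 for Cyp2f2. The smallest p it can give is 0.00126, and these p carry no adjustment and take no account of run day. For the dim probe sets it gave 0.487 for Cbr2 (log2 difference -0.12) and 0.473 for the second Aldh1a1 probe set (-0.28). Against the AJ arrays alone, all 4 tested members passed at 42 weeks, with limma differences of 0.70 for Scgb1a1 (adjusted p = 0.00331), 0.39 for Cyp2f2 (adjusted p = 0.0227), 0.45 for Aldh1a1 (adjusted p = 0.00666) and -0.67 for Aldh1a7 (adjusted p = 0.0241). That fit called 2.55% of all probe sets higher and 3.37% lower, 441 in all against 6. With array weights over all 12 arrays, 3 of the 4 members passed, Scgb1a1 and Aldh1a1 as higher and Aldh1a7 as lower, where 2.95% of all probe sets were called higher and 4.43% lower. Against LZ2 and LZ3 alone, Scgb1a1 was -0.07 and Cyp2f2 was -0.11, opposite in sign and past no threshold (adjusted p = 0.995 and 0.993). The direction of Scgb1a1 and Cyp2f2 over time thus turned with the title prefix chosen as the earlier group. Signs for Aldh1a1 and Aldh1a7 were the same against either prefix, and neither passed against the LZ arrays.

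Since the 2 aldehyde dehydrogenases went opposite ways, their ratio was taken on each array, a measure chosen after the values were seen. Aldh1a7 stood at 12.9%, 11.1% and 14.5% of the Aldh1a1 signal on the AJ arrays, at 5.43% on LZ2 and at 9.21% on LZ3. At 42 weeks it stood between 3.77% on LZ62 and 7.21% on LZ63. The size of the ratio depends on the probe sets, and only its change between arrays is read. The log2 ratio was -3.31 ± 0.56 (SD, n = 5) at 24 to 26 weeks and -4.09 ± 0.30 (SD, n = 7) at 42 weeks, a difference of -0.78, given with no test because the same values led to the measure. It was lower on all 7 arrays of 42 weeks than on 4 of the 5 of 24 to 26 weeks, LZ2 being the exception. Within the LZ arrays alone the difference was -0.27 (n = 7 and 2). The ratio after quantile and cyclic loess normalization differed by -0.54 and -0.59.

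**Figure D2:**
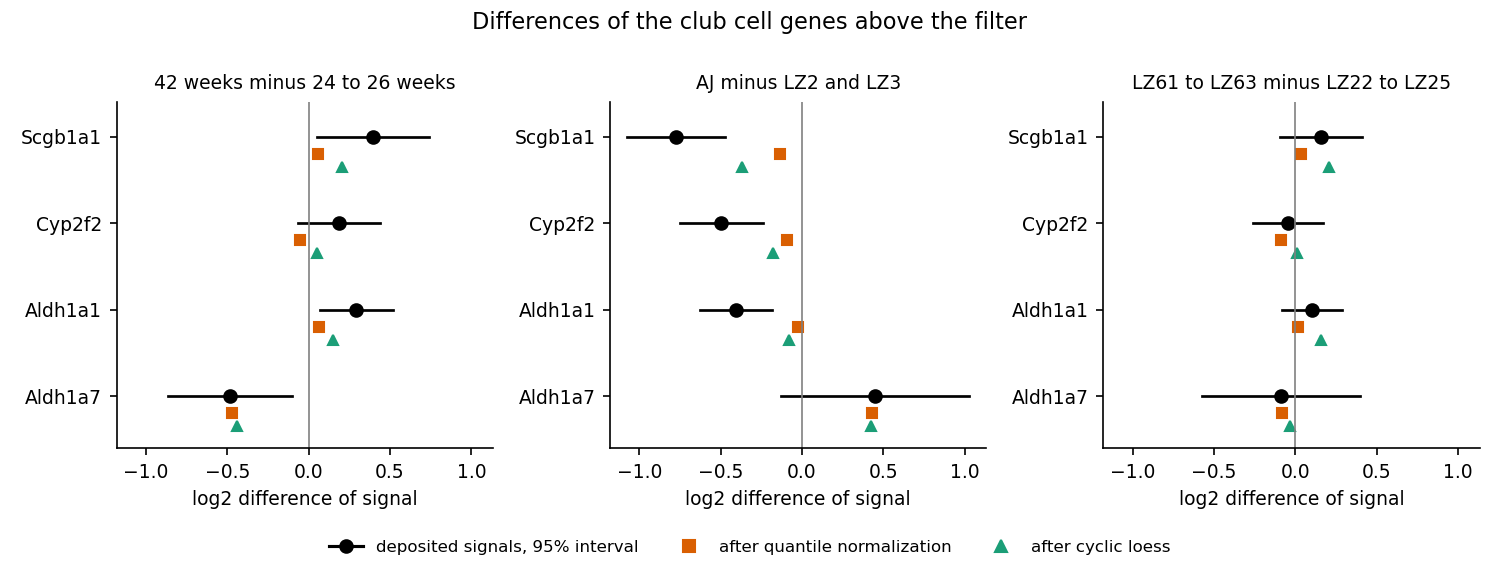
Log2 differences of signal (horizontal axis) of the 4 club cell genes above the filter (rows) in 3 comparisons, with limma 95% intervals for the deposited signals and the estimates after quantile or cyclic loess normalization. Aldh1a7 kept its position under both normalizations, while in the AJ panel Scgb1a1 moved from -0.77 to -0.13 and -0.37.

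The title prefixes were compared at 24 to 26 weeks, as AJ1, AJ2 and AJ4 minus LZ2 and LZ3, in 1 fit of all 12 arrays with the 4 title ranges as groups. In this fit, also used for the number ranges, p-values rest on spread within a title range, which is within 1 run day. Spread between run days is not in them. Scgb1a1 and Cyp2f2 were lower on the AJ arrays, and Aldh1a1 lay in the same direction just short of the threshold. Scgb1a1 was 1.71-fold lower, at -0.77 on the log2 scale (SE 0.14, 95% interval -1.08 to -0.47, limma, adjusted p = 0.0150). Cyp2f2 was 1.41-fold lower, at -0.50 (95% interval -0.75 to -0.24, limma, adjusted p = 0.0459). Aldh1a1 differed by -0.40 (95% interval -0.62 to -0.18, limma, adjusted p = 0.0561), and Aldh1a7 by 0.45 (95% interval -0.13 to 1.03, limma, adjusted p = 0.414). In all, 2 of 4 members were called lower, against 1.37% of all probe sets, and 0 were called higher, against 1.13%. For 3 of the 4 members the groups were free of overlap, which held for 41.1% of all probe sets.

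The calls rest on few arrays. Without LZ3 the difference of Scgb1a1 was -0.59 (limma, adjusted p = 0.187), and without AJ4 it was -0.73 (limma, adjusted p = 0.0694). Cyp2f2 passed only when LZ62 or LZ63, which bear on the shared spread, was the array left out. Without LZ2 the sign of Aldh1a7 turned, to -0.06.

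Brightness moved with this comparison. Among 93 other probe sets with a mean signal of 10000 or more, 90 were lower on AJ, with a median log2 difference of -0.41, and 26 of them were called lower. The median was -0.20 for 158 probe sets between 5000 and 10000 and 0.08 for 5488 below 1000. The 3 bright members lie in the first of these classes and Aldh1a7 does not. The highest signal of any probe set was 19066 to 21497 on the AJ arrays and 29121 to 43011 on the LZ arrays. Quantile normalization, which gives every array the same distribution, brought the median of the 93 to -0.004, Scgb1a1 to -0.13 (limma, adjusted p = 0.474) and Cyp2f2 to -0.09 (limma, adjusted p = 0.679). After cyclic loess, which removes trends with brightness between arrays, the median of the 93 was -0.10, Scgb1a1 was at -0.37 (limma, adjusted p = 0.0559) and Cyp2f2 at -0.18 (limma, adjusted p = 0.358). Neither call held under either normalization, and Aldh1a1 went from -0.40 to -0.02 after quantile normalization (limma, adjusted p = 0.931) and -0.08 after cyclic loess (limma, adjusted p = 0.678). Over time, 92 of the same 93 were positive, with a median of 0.22, beside 0.40, 0.19 and 0.29 for Scgb1a1, Cyp2f2 and Aldh1a1. The part of the bright end of the scale in these differences was not tested.

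**Figure D3:**
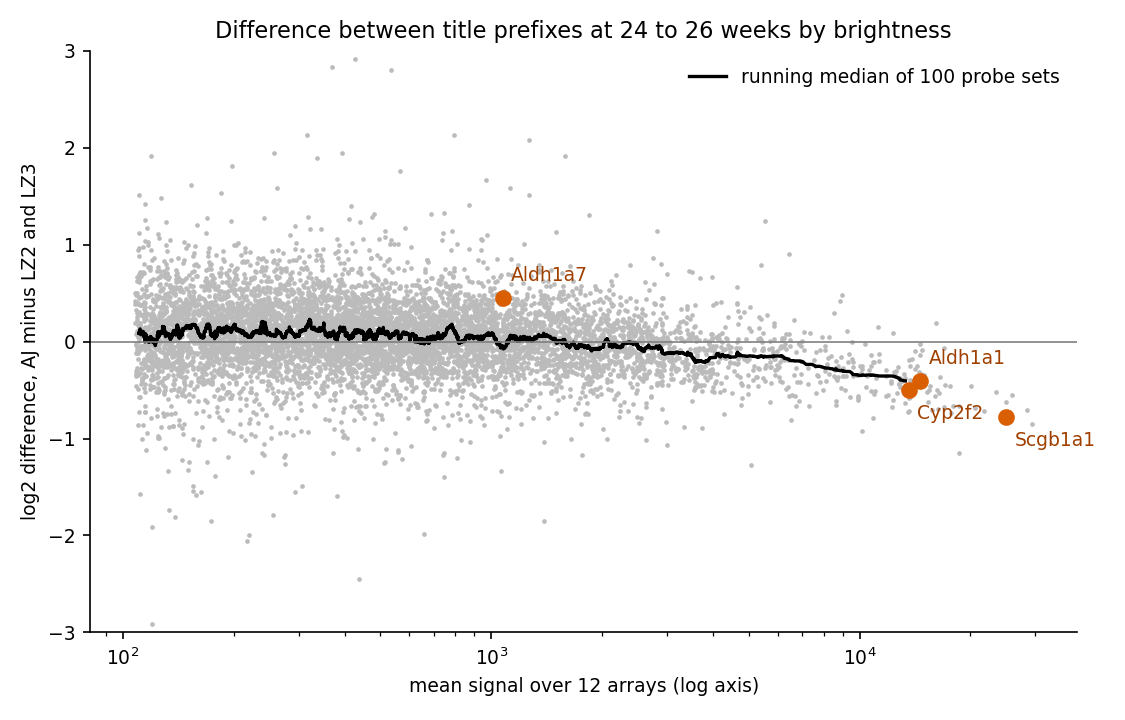
Log2 difference of signal, AJ minus LZ2 and LZ3 (vertical axis), against mean signal over the 12 arrays (horizontal axis, log scale) for 7453 probe sets. Grey points are other probe sets, the line is a running median of 100 of them, and orange points are the club cell genes. Scgb1a1 at -0.77, Cyp2f2 at -0.50 and Aldh1a1 at -0.40 lie among bright probe sets that are mostly below 0, and Aldh1a7 at 0.45 lies above the line.

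The number ranges were compared at 42 weeks, as LZ61 to LZ63 minus LZ22 to LZ25, and no club cell gene differed past the test. The differences were 0.16 for Scgb1a1 (limma, adjusted p = 0.462), -0.05 for Cyp2f2 (limma, adjusted p = 0.837), 0.10 for Aldh1a1 (limma, adjusted p = 0.521) and -0.09 for Aldh1a7 (limma, adjusted p = 0.867). The 95% intervals were -0.09 to 0.41, -0.26 to 0.17, -0.08 to 0.29 and -0.57 to 0.40 in that order. Limma called 0 of 4, against 0.416% of probe sets called higher and 1.09% called lower. For 0 of the 4 was the unadjusted p under 0.05, against 1472 of 7453 probe sets. All 4 overlapped, against 16.0% of probe sets free of overlap. Without LZ22, LZ24 and LZ63 the values were 0.24, -0.04, 0.14 and -0.21, and none passed.

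The bright members followed one another across arrays, as a description with no test, since arrays of 1 title range share a run day and all 3 genes share the bright end of the scale. Pearson's r of log2 signals over the 12 arrays was 0.93 between Scgb1a1 and Cyp2f2, 0.96 between Scgb1a1 and Aldh1a1 and 0.89 between Cyp2f2 and Aldh1a1, with Spearman's rho of 0.86, 0.87 and 0.83. With the title range means removed, r was 0.84, 0.81 and 0.83. Over the 9 LZ arrays it was 0.68, 0.76 and 0.48, and over the 7 arrays of 42 weeks 0.52, 0.76 and 0.39. The likeness was thus lower in both sets without the AJ arrays than over the 12. Aldh1a7 ran against all 3 over the 12 arrays, with r of -0.63, -0.49 and -0.58, and with the means removed these were -0.06, 0.12 and 0.31. Over the arrays of 42 weeks they were -0.85, -0.40 and -0.52, and over the LZ arrays -0.005, 0.33 and 0.19. Cbr2 had r between -0.48 and 0.11 with the other members.

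**Figure D4:**
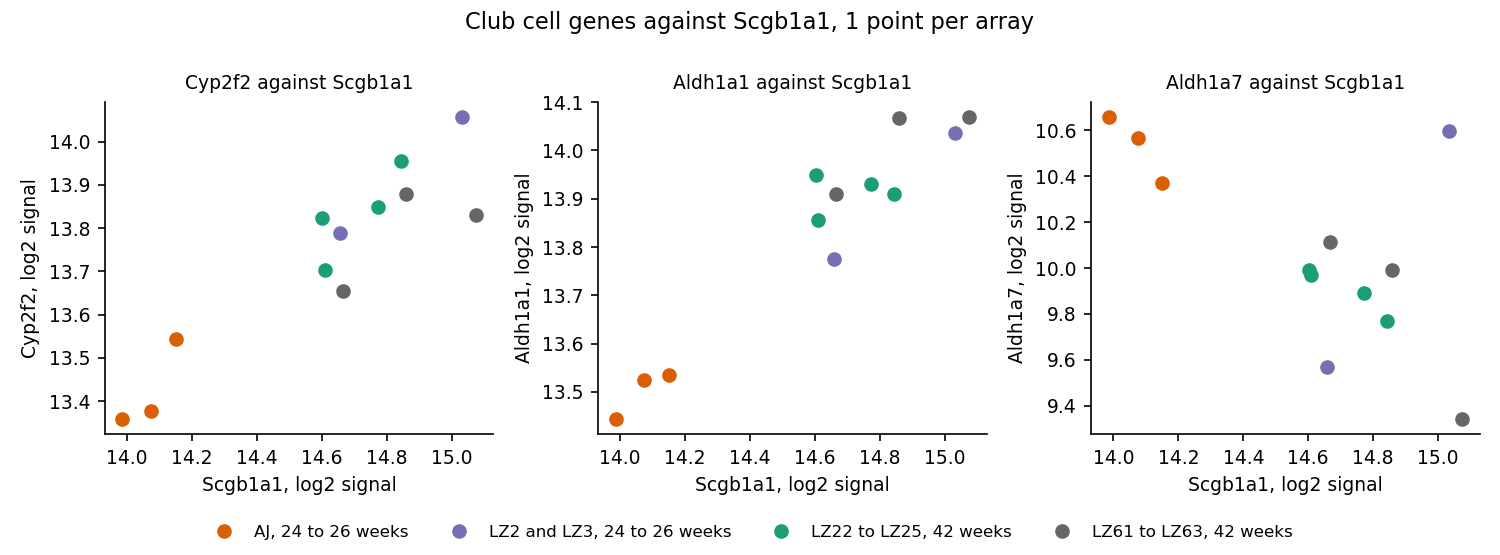
Log2 signals of Cyp2f2, Aldh1a1 and Aldh1a7 (vertical axes) against that of Scgb1a1 (horizontal axis), 1 point for each of the 12 arrays, coloured by title range. The AJ arrays sit apart at the low end of Scgb1a1, with the lowest Cyp2f2 and Aldh1a1 and, beside LZ3, the highest Aldh1a7.

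The genes most alike to each member over the 12 arrays were taken from 5730 other named genes, or 5731 for Cbr2. They were picked as the highest of that many values of r over few arrays. Picking alone can thus give a high r, and none was tested. For Scgb1a1 they were Sftpc (surfactant protein C), Eef1a1 (translation elongation factor), Rps28, Actg1 and Tpt1, with r of 0.98 to 0.99 and mean signals from 13766 to 29414. For Cyp2f2 they were Sftpc, Tuba1c, Rpl8, Arf1 and Hp, with r of 0.94 to 0.95, and for Aldh1a1 they were Rps28, Rps18, Scgb1a1, Eef1a1 and Rps3, with r of 0.95 to 0.97. All of these are bright, with mean signals of 11766 or more. Aldh1a7 was most like Acss1, an acetyl-CoA synthetase of mitochondria, at r = 0.92, followed by Ptcd3, Bscl2, Ndufb3 and Rpap1 at 0.85 to 0.88, and these had mean signals between 284 and 1326. Cbr2, whose probe set was dim and below the filter, had its highest r with Lgals4, Slc35e4, Rfxank, Camsap1 and Ica1, at 0.83 to 0.85. With the title range means removed, the closest 3 were Actg1, Sftpc and Rps28 for Scgb1a1, Rps3a1, Sftpc and Rtf2 for Cyp2f2, Gnb2, Mecom and Txn1 for Aldh1a1, Slc35e1, Nme6 and Macir for Aldh1a7 and Rnps1, Ddit4 and Tsc22d1 for Cbr2.

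Other club cell and airway secretory genes did not pass in any of the 3 comparisons. Of 41 on the list beside the members, 23 had a probe set and 20 were tested, and limma called 0 of 20 each time. An unadjusted p under 0.05 was found for 1 over time, 3 between the prefixes and 1 between the number ranges. Over all 7453 probe sets tested it was found for 1097, 1331 and 1472, in that order. The median log2 difference was 0.06 over time, -0.15 between the prefixes and 0.03 between the number ranges, beside -0.04, 0.04 and -0.01 over all probe sets tested. Between the prefixes, 15 of 20 were negative. Hp, haptoglobin, which binds free haemoglobin, read 12382 ± 678 (SD, n = 3) on AJ and 17523 ± 2075 (SD, n = 2) on LZ2 and LZ3 (-0.50, limma, adjusted p = 0.0747). Gstm1, a glutathione transferase, read 10310 ± 476 and 13644 ± 111 (-0.41, limma, adjusted p = 0.0870) and also had the smallest p over time (0.31, limma, adjusted p = 0.256). Hp and Gstm1 belong to the class with a mean signal of 10000 or more. In that class 90 of 93 probe sets outside the members were lower on AJ, with a median of -0.41. Cyp2b10 and Cyp4b1 differed by -0.14 and -0.13 between the prefixes, with adjusted p of 0.687 and 0.735 (limma). Ephx1, an epoxide hydrolase that acts after P450 oxidation, had the smallest p between the number ranges, at -0.37 (limma, adjusted p = 0.252).

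Enzymes of the same families and pathways were largely without calls. No other aldehyde dehydrogenase (6 tested), no carbonyl or aldo-keto reductase (10 tested) and no Cyp2 family gene or electron partner (8 tested) was called in any comparison, with 0 to 2 of each at an unadjusted p under 0.05 (limma). The smallest p were those of Aldh9a1 over time and between the prefixes (-0.37, adjusted p = 0.226; 0.47, adjusted p = 0.130) and of Aldh3a2 and Akr1c13 between the number ranges (-0.53 and -0.58, both with adjusted p = 0.0677). Among 11 genes of the retinoid pathway, Adh1, an alcohol dehydrogenase that oxidises retinol, was lower on AJ at 925 ± 234 (SD, n = 3) against 1501 ± 2.55 (SD, n = 2), a log2 difference of -0.73 (limma, adjusted p = 0.0483). Adh1 was also lower on LZ61 to LZ63, at 779 ± 92.8 (SD, n = 3) against 1227 ± 44.3 (SD, n = 4), a difference of -0.66 (limma, adjusted p = 0.0451). Of all probe sets, 1.37% were called lower between the prefixes and 1.09% between the number ranges. The first call of Adh1 rests on 2 LZ arrays. The second did not hold with AJ2, LZ22, LZ23 or LZ25 left out, where limma called 0 probe sets between the number ranges. No other retinoid gene was called, and 0 of the 11 were called over time, where 2 had an unadjusted p under 0.05. Of 22 lung epithelial transcription factors 0 were called in each comparison (limma, with 4, 2 and 5 at an unadjusted p under 0.05). Over all 7453 probe sets tested those counts were 1097, 1331 and 1472. Jund came nearest, at -0.93 on AJ (limma, adjusted p = 0.0520). It read 6361 to 17247 over the 12 arrays and is in the class of 10000 or more, where 90 of 93 were lower on AJ. Cebpa and Foxa2, factors that act in the airway epithelium, read 2960 to 5305 and 844.0 to 1413 over the 12 arrays.

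Markers of neighbouring cell types were followed by list. Alveolar type 2 genes had a median of -0.21 between the prefixes (15 tested), and 2 were lower on AJ, against 1.37% of all probe sets. They were Sftpc at -0.85 (limma, adjusted p = 0.0154) and the mucin Muc1 at -0.58 (limma, adjusted p = 0.0476). The prefix calls of list genes rest on 2 LZ arrays, and they were not followed gene by gene under other normalizations or with arrays left out. Of 9 genes on the ciliated list, only the tubulin Tuba1a was called between the prefixes, lower on AJ at -0.72 (limma, adjusted p = 0.0334). Tuba1a is not among the ciliated markers named above. Of those above the filter, Foxj1 read 583.4 to 718.3 on AJ against 429.2 and 438.0 on LZ2 and LZ3. Cd24a went the other way, with 5084 to 5757 against 5892 and 6570. The ciliated list as a whole had a median of 0.14 there, with 5 genes positive and 4 negative. All 9 were positive between the number ranges, where the median was 0.23 and 0 were called (limma, 1 at an unadjusted p under 0.05). In that comparison all 14 cardiac, 9 skeletal muscle and 6 fat genes tested were positive too, and the ciliated list was lowest on LZ22, at -0.30 relative to each gene's median. Sftpc and Tuba1a read 19426 ± 1406 and 9404 ± 1135 (SD, n = 3) on AJ, in the bright range of Scgb1a1 and Cyp2f2. Of 14 macrophage genes, Cd68, a lysosomal glycoprotein, was lower on LZ61 to LZ63, at -0.99 (limma, adjusted p = 0.0451), against 1.09% of all probe sets called lower. The call of Cd68 did not hold with AJ2, LZ22, LZ23 or LZ25 left out, where limma called 0 probe sets in that comparison. Alveolar type 1 genes (10 tested) had 0 calls. The summed signal of the 20 club cell and airway secretory genes was 78976 to 82611 on AJ, 88893 to 100184 on LZ2 and LZ3, 84810 to 97656 on LZ22 to LZ25 and 88558 to 99146 on LZ61 to LZ63. A sum is weighted to the brightest genes, and that of the alveolar type 2 list was lowest on AJ too, at 81078 to 82878. Relative to each gene's median, the club cell list had medians that overlapped. They were -0.10 to -0.03 on AJ, -0.08 to 0.13 on LZ22 to LZ25 and -0.13 to 0.07 on LZ61 to LZ63. The part of cell mix in the member differences was not tested.

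**Figure D5:**
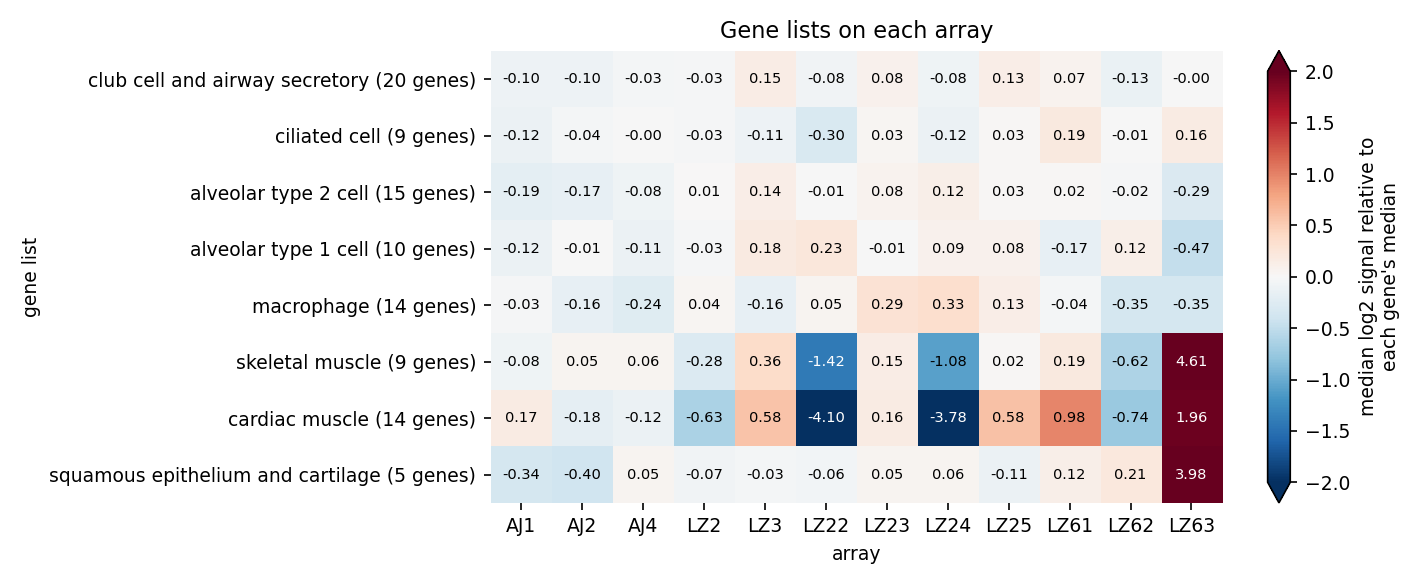
Median log2 signal of each gene list (rows) on each of the 12 arrays (columns), with every gene set against its own median, as numbers and colour. The club cell and airway secretory list stayed between -0.13 and 0.15, while muscle lists reached 4.61 on LZ63 and -4.10 on LZ22.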

How the data were processed

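Messenger RNA of A/J mouse lung was measured on Affymetrix MG_U74Av2 arrays. The deposited table held linear intensity values, which were MAS5 signals per the submitters' processing notes. The MAS5 version and scaling target, like the genome build, were not given in the sources used here. Detection calls and probe-level values were not analysed here. All 12 columns matched a sample. MAS5 scaling hides a shift shared by most transcripts.

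Of 12488 probe sets, 66 controls were removed. Symbols came from the platform annotation (10833 with 1 symbol, of which 10817 matched RefSeq by Entrez number). Values were log2-transformed, and probe sets with a mean under the 40th percentile were left out. Tests were two-sided with limma (version 3.58.1, R 4.3.3), using lmFit and eBayes with the trend and robust options, and p were adjusted by Benjamini-Hochberg over 7453 probe sets. The fit over time was checked on simulated data with independent noise on each array and no run-day effect, so the check does not cover run day. Run day was a random block by duplicateCorrelation (consensus correlation 0.227). Of several probe sets of a gene the brightest stood for it.

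Members, lists, tests and the rule for named genes were chosen with earlier results of these data known. The rule names every member, list genes past the test or else those with the smallest p, and the 5 and 3 genes most alike to each member. Alternatives changed the normalization, filter, pseudocount (28.7), moderation, weights, blocks and arrays, and cyclic loess, the fit without LZ22, LZ24 and LZ63 and the ratio of Aldh1a7 to Aldh1a1 were added after the data were seen.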

Additional observations from a re-analysis of the deposited data

How the results depend on the processing

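Directions over time turned for Scgb1a1 (-0.069) and Cyp2f2 (-0.11) against LZ2 and LZ3 alone or with the title prefix as a block, and for Cyp2f2 after quantile normalization (-0.055). Against the AJ arrays alone the time differences passed for Scgb1a1 (0.70), Cyp2f2 (0.39), Aldh1a1 (0.45) and Aldh1a7 (-0.67), in a fit that called 441 probe sets. With array weights they passed for Scgb1a1 (0.51), Aldh1a1 (0.36) and Aldh1a7 (-0.52), in a fit that called 550. Between the prefixes, Scgb1a1 lost its call after quantile normalization (-0.13) and cyclic loess (-0.37). Cyp2f2 lost its call after quantile normalization (-0.093) and cyclic loess (-0.18), with no filter (-0.50, adjusted p = 0.0669) and with plain eBayes (-0.50, adjusted p = 0.0953). Aldh1a1 passed with the 60th percentile filter (-0.40), array weights (-0.39) and equal medians (-0.50), and lay near 0 after quantile normalization (-0.023), cyclic loess (-0.079) and with the mean of both probe sets (-0.0055). Between the number ranges Cyp2f2 turned with array weights (0.0024) and cyclic loess (0.0093).

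Leaving out each array in turn moved the prefix difference from -0.96 (without LZ2) to -0.59 (without LZ3) for Scgb1a1, -0.63 to -0.36 for Cyp2f2, -0.53 to -0.27 for Aldh1a1 and -0.063 to 0.96 for Aldh1a7. It moved the difference between number ranges from -0.092 to 0.021 for Cyp2f2 and from -0.24 to 0.15 for Aldh1a7, and the time difference of Aldh1a7 from -0.68 to -0.40, which passed without LZ2 alone (adjusted p = 0.0354). The causes were not tested. The change of the ratio of Aldh1a7 to Aldh1a1 stayed negative with each array left out, -0.65 (without AJ4) being nearest to 0.

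Counts over all probe sets depended on the fit. Over time 6 were called in the fit described and 0 to 550 under the alternatives, between the prefixes 186 and 121 to 776, and between the number ranges 112 and 3 to 292. With 1 array left out they lay between 4 and 38, 0 and 374, and 0 and 84. Equal medians gave 58 higher and 198 lower between the prefixes, against 84 and 102, and 33 higher and 259 lower between the number ranges, against 31 and 81. Cyclic loess gave 45 higher and 73 lower there. No paired analysis was possible because the titles of the time points share no replicate numbers. Dim probe sets such as that of Cbr2 give no usable difference at these signals.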
